A study of Mus musculus with 2 samples.

Results

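Ear skin of Ccr2-/- mice was compared between day 5 and day 3 after allergen challenge, by the makeup of its cells and by the genes read in each cell type. The comparison held 4538 cells, 2191 of day 3 and 2347 of day 5, out of 7118 cells kept from 8953 barcodes. Cells of 4 pools had been stained with 1 hashtag antibody a pool, mixed and run together on BD Rhapsody, a microwell system for single cells, with libraries made by TAS-Seq. A barcode was given to the pool with the highest hashtag signal (reads plus 1, divided by that hashtag's total) where this was at least 3 times the next and where it had 10 or more hashtag reads. Of the cells so assigned, those with at most 20% mitochondrial reads and at least 200 genes were kept. Among barcodes closest to the Ccr2-/- hashtags, 143 with a ratio of 2 to 3 were left out and 122 with a ratio of 3 to 4 were kept.

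Both pools came from mice of the BALB/c strain that lacked Ccr2. TNP-specific IgE (300 µg) was injected into the blood, and 10 µg of TNP-coupled ovalbumin into the ear skin a day later, a model of IgE-mediated chronic allergic inflammation (IgE-CAI). The tissue was digested and the cells separated by density, so shares describe the cells recovered. The other pools were wild-type (WT) BALB/c skin of the same days, handled in the same run, and their values appear only beside a few results. How many mice a pool held is not given in the sources used here. With 1 pool a day, the day and the pool cannot be told apart, no difference was tested, and all intervals are exact 95% intervals of counting error alone. The values count reads and not molecules, so copies of 1 molecule made by PCR were counted separately.

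CCR2 is the chemokine receptor by which monocytes leave the bone marrow for inflamed tissue, where they become macrophages that take up dying cells. Neutrophils arrive through CXCR2 ligands, live briefly, and carry IL-1 and calprotectin transcripts. Fibroblasts of inflamed skin respond to IL-1 with chemokines and with acute-phase proteins, a family better known from the liver that includes haptoglobin, serum amyloid A, lipocalin-2 and complement C3.

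The day 3 pool had 162572556 reads and a median of 34410 reads and 2855 genes per cell. The day 5 pool had 148269050 reads and medians of 18632 reads and 1739 genes. Neutrophil-like cells are shallow, with medians of 9693 and 9537 reads, and without them the pool medians were 51544 and 47572 reads. Fibroblast-like cells had medians of 143923 and 143102 reads. The levels below are reads of a gene scaled to 1000000 reads (CPM), summed over the cells of a type in a pool. The targeted gene Ccr2 (chromosome 9, 124101950 to 124113557, plus strand, GRCm38) was read in monocyte-macrophage-like (Mo-Mac-like) cells at 86.5 CPM (81.0 to 92.2) on day 3 and 28.2 CPM (24.5 to 32.4) on day 5, beside 944 and 680 CPM in the WT pools. A single cell held 35.6% of these reads at day 3 and 29.9% at day 5, and 22.0% and 28.4% of Mo-Mac-like cells had any. Ccr2 met the rule for a lower gene given further on, and did not without the deepest cells.

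Neutrophil-like cells, defined by Csf3r, Cxcr2, S100a8 and S100a9, had the largest difference in share, in percentage points, among the named types. They made up 18.7% of cells at day 3 (409 cells, 17.1 to 20.4) and 34.1% at day 5 (801 cells, 32.2 to 36.1), a ratio of 1.83 (1.62 to 2.06). Fibroblast-like cells made up 31.1% (681 cells, 29.1 to 33.1) and 22.8% (536 cells, 21.2 to 24.6), a ratio of 0.735 (0.655 to 0.824). Mo-Mac-like cells made up 6.02% (132 cells, 5.06 to 7.10) and 3.75% (88 cells, 3.02 to 4.6), a ratio of 0.622 (0.470 to 0.821). The intervals of the 2 days did not overlap for these 3 types. There were 3.10 neutrophil-like cells for each Mo-Mac-like cell at day 3 and 9.10 at day 5.

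**Figure D1:**
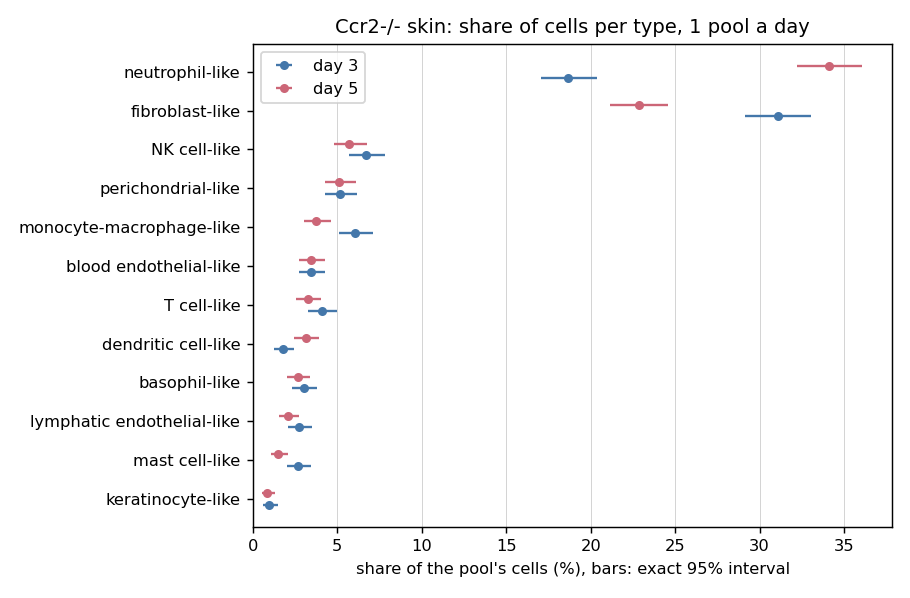
Share of the cells of each Ccr2-/- pool (horizontal axis, percent) for the 12 largest named types, with points for day 3 and day 5 and bars for exact 95% intervals. The neutrophil-like point lies at 18.7% on day 3 and 34.1% on day 5, and the fibroblast-like and Mo-Mac-like points lie lower on day 5.

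For a pair of smaller immune types the interval of the ratio did not include 1. Mast cell-like cells, with the proteases Mcpt4 and Cma1, went from 2.65% (58 cells, 2.02 to 3.41) to 1.49% (35 cells, 1.04 to 2.07). Dendritic cell-like cells, led by MHC class II genes, went from 1.78% (39 cells, 1.27 to 2.43) to 3.11% (73 cells, 2.45 to 3.90). For the remaining named types of at least 20 cells a day the interval of the ratio included 1. Natural killer (NK) cell-like cells were at 6.71% and 5.71%, perichondrial-like cells at 5.16% and 5.11%, T cell-like cells at 4.06% and 3.24%, blood endothelial-like cells at 3.42% and 3.45%, and basophil-like cells at 3.01% and 2.64%. Lymphatic endothelial-like cells were at 2.74% and 2.05%, and keratinocyte-like cells at 0.958% and 0.852%.

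Shares add up to the whole, so one type can fall in share because another is larger. Within the named leukocyte types alone, neutrophil-like cells were 43.3% (40.1 to 46.5) at day 3 and 62.7% (59.96 to 65.3) at day 5, a ratio of 1.45. Unnamed clusters were left out of this total. Among them were 85 and 111 cells led by Retnlg, Alox15 and Ccr3, which scored highest for eosinophil markers. Mo-Mac-like cells were 13.97% (11.8 to 16.3) and 6.89% (5.56 to 8.41) of leukocytes. On this scale NK cell-like cells went from 15.6% to 10.5% and T cell-like cells from 9.42% to 5.95%. Dendritic cell-like cells were 4.13% and 5.71% of leukocytes, and the interval of their ratio of 1.38 (0.926 to 2.097) now included 1. Mast cell-like cells were 6.14% and 2.74%, a ratio of 0.446 (0.285 to 0.690). Side by side with these, as shares of all cells, the WT pools went the other way for the 3 types named first. The ratios were 0.20 (0.077 to 0.443) for neutrophil-like, 1.21 (1.02 to 1.43) for fibroblast-like and 1.41 (1.24 to 1.61) for Mo-Mac-like cells. The first of these rests on 52 WT cells at day 3 and 7 at day 5. The difference between genotypes was not tested.

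Several clusters were left without a name, 287 cells (13.1%) at day 3 and 259 cells (11.04%) at day 5. A cluster led by Retnlg, Alox15 and Ccr3 made up 3.88% and 4.73%. A cluster led by small nuclear and micro-RNA genes went from 3.29% (2.58 to 4.12) to 1.19% (0.794 to 1.72). Those led by Gpx3 and Itm2a, and by Klk1 and Siglech, were at 5.29% and 4.30%, and at 0.639% and 0.810%. The limits that kept them out of a named type were set after the data had been seen.

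Neutrophil-like cells fell into a pair of clusters. The cluster led by S100a9 and S100a8 held 178 cells at day 3 and 439 at day 5, or 43.5% (38.7 to 48.5) and 54.8% (51.3 to 58.3) of the type. The other, led by Il1a, Clec7a and Fpr2, held 231 and 362 cells, or 56.5% and 45.2%. As shares of all cells they had ratios of 2.302 (1.93 to 2.76) and 1.46 (1.24 to 1.73). Both were thus larger at day 5, and the S100a9-led cluster more so.

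The genes read in neutrophil-like cells changed little beside their number. A gene was called where its CPM (plus 5) differed at least 2-fold between the days, both in the summed reads and in the mean of the cells' CPM. Of 2489 genes with at least 50 CPM and reads in 10% of cells on either day, 5 were called higher at day 5 (0.201%) and 6 lower (0.241%). The summed level of 2452 of the 2489 lay within 2-fold. The higher genes included Sltm, Alox5, Arg1 and Zfp622. Alox5 (chromosome 6, 116410077 to 116461178, minus strand), the 5-lipoxygenase that begins leukotriene synthesis, rose from 42.2 CPM (36.8 to 48.3) to 102 CPM (95.8 to 109), with a log2 ratio of 1.18. Arg1, or arginase 1, rose from 78.7 CPM (71.2 to 86.8) to 168 CPM (159 to 176), and a single cell held 27.6% and 23.5% of its reads. It kept its call in 5 of 11 alternative settings, and without the deepest cells its log2 ratio was 0.92. Among these settings, a smaller pseudocount and a looser gene filter cannot remove a call. Arg1 in neutrophil-like cells was 11.2% of the level in Mo-Mac-like cells of day 5, whose markers summed to 378 and 433 CPM in neutrophil-like cells. What part RNA of other cells had in Arg1 was not tested.

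C3, the central protein of the complement cascade, had the largest called difference in the other direction in neutrophil-like cells. It fell from 671 CPM (649 to 694) to 247 CPM (237 to 258), a log2 ratio of -1.42, with reads in 55.7% and 24.7% of cells. With each cell thinned to 5000 reads, 52.8% (47.6 to 58.0) and 19.3% (16.5 to 22.3) of neutrophil-like cells had a C3 read, and 38 and 70 shallower cells were left out. In NK cell-like cells, which should lack C3, these shares were 11.9% and 15.2%. The 8 fibroblast markers summed to 6737 CPM at day 3 and 8313 CPM at day 5 in neutrophil-like cells. C3 was lower at day 5 in fibroblast-like cells as well, and the part of their RNA in this result was not tested. Within the Il1a-led cluster C3 went from 860 to 226 CPM, and within the S100a9-led cluster from 449 to 266 CPM. Ptprj, a receptor tyrosine phosphatase, fell from 219 to 106 CPM, a log2 ratio of -1.01 that became -0.99 without its top cell. The other lower genes, Stx6, Med1, Ufm1 and the gene model Gm13822, were at 59.2 to 77.0 CPM at day 3 and 25.2 to 33.9 CPM at day 5. Stx6 and Med1 kept their call in 6 of the 11 settings each and Ufm1 in 4.

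The transcripts for which neutrophils are known were within 2-fold between the days. Il1b (chromosome 2, 129364570 to 129371139, minus strand) had 18420 CPM (18302 to 18538) and 22050 CPM (21954 to 22146). Il1a, its close relative, had 441 CPM (423 to 460) and 652 CPM (635 to 669). Il1rn, which encodes the antagonist of both, had 3359 CPM (3309 to 3410) and 2415 CPM (2383 to 2447). Hence the ligands were somewhat higher and the antagonist somewhat lower at day 5, each short of the call. In both clusters Il1a and Il1b had positive log2 ratios and Il1rn a negative one. Calprotectin stood at 10546 and 13091 CPM for S100a8, and at 17683 and 22941 CPM for S100a9. The chemokine Cxcl2 had 32689 and 35270 CPM. The receptors Cxcr2 and Csf3r, which bind neutrophil chemokines and G-CSF, had 2746 and 2492 CPM, and 2111 and 2011 CPM. S100a8, S100a9, Cxcr2 and Csf3r are among the markers that named the type, so cells of both days were selected partly by them.

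Of 23 gene lists, 3 held a called gene in neutrophil-like cells, and 141 of their 288 genes were compared. None of 7 members was called among the IL-1 family (median log2 ratio 0.26), none of 13 among ageing and activation genes (0.06), none of 9 among cell death genes (-0.07) and none of 14 among TNF and NF-κB feedback genes (-0.08). The median over all genes compared was -0.03, and 11 of 2489 were called (0.442%), so lists of this size would seldom hold a call. Interferon-stimulated genes had a median of -0.30, with 1 of 10 above 0 and none called. Among them, Irf7, a master regulator of type I interferon, had 525 CPM (505 to 545) and 310 CPM (299 to 321). Oasl2 had 149 and 73.3 CPM, and Ifit1 had 160 and 86.3 CPM. The share of thinned neutrophil-like cells with an Irf7 read was 44.5% (39.3 to 49.7) and 28.6% (25.3 to 32.0), beside 5.59% and 9.09% of NK cell-like cells.

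**Figure D2:**
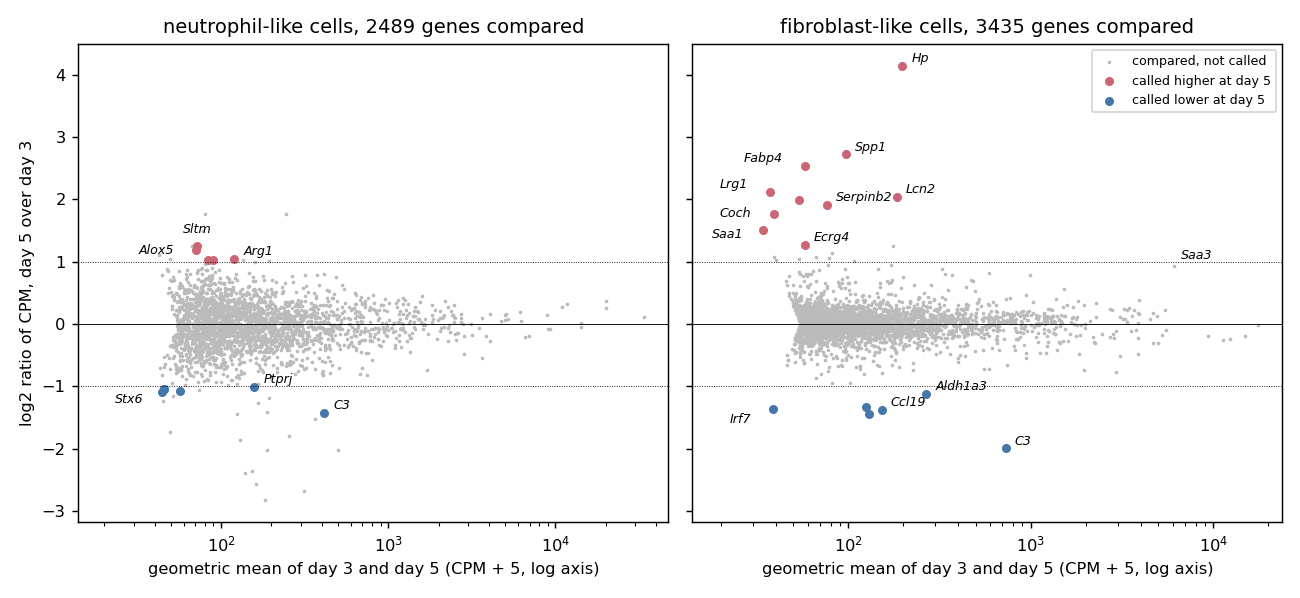
Log2 ratio of CPM, day 5 over day 3 (vertical axis), against the geometric mean of both days (CPM plus 5, horizontal log axis), for each gene compared in neutrophil-like (left) and fibroblast-like (right) cells, with called genes coloured and some of them named. The called genes are few in both types, 11 of 2489 and 16 of 3435, and Hp in fibroblast-like cells lies farthest from 0 among them at 4.14; grey points beyond the dotted 2-fold lines were not 2-fold in the mean of cells.

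In fibroblast-like cells, acute-phase genes moved in opposite directions. Of 3435 genes compared, 10 were called higher at day 5 (0.291%) and 6 lower (0.175%), and 99.3% were within 2-fold in the summed reads. Hp (chromosome 8, 109575128 to 109579172, minus strand) encodes haptoglobin, which binds free haemoglobin. It rose from 42.0 CPM (40.8 to 43.2) to 825 CPM (819 to 831), a log2 ratio of 4.14. Lcn2 (chromosome 2, 32384633 to 32388252, minus strand) encodes lipocalin-2, which keeps iron from bacteria. It rose from 86.4 CPM (84.7 to 88.1) to 370 CPM (366 to 374), a log2 ratio of 2.04. C3 (chromosome 17, 57203970 to 57228136, minus strand) fell from 1449 CPM (1442 to 1457) to 360 CPM (356 to 364), a log2 ratio of -1.995. Without the cell that held most reads of the gene, the log2 ratios were 3.99 for Hp, 1.62 for Lcn2 and -2.03 for C3.

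The promoters of Lcn2 and C3 are shown because these genes moved in opposite directions in the summed reads of fibroblast-like cells. Each is the run of 250 bases before the start site in RefSeq (GRCm38.p6, minus strand), written 5′ to 3′, with matches to the C/EBP-type motif TTGCNNAA in capitals.
Lcn2, chr2:32387740-32387989: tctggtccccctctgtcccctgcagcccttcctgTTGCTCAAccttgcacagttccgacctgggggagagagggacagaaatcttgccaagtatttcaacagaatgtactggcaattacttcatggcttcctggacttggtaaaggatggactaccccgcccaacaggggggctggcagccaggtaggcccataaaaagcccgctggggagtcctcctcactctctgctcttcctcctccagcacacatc
C3, chr17:57228137-57228386: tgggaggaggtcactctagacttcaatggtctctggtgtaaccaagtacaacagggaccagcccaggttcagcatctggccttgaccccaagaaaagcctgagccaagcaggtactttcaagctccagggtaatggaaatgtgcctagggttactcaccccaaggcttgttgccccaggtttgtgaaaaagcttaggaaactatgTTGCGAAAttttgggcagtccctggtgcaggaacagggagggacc
Both strands were searched. The match begins 216 bases before the start in Lcn2 and 45 bases before it in C3. The same letters are found in 3142 of 32851 promoters of this length (9.56%). Neither promoter held the STAT-type letters TTCNNNGAA, which are in 7.02% of promoters, or the κB-type or interferon response type motif searched for, which are in 3.86% and 2.98%. A match describes the sequence and does not show that a factor binds there.

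Saa3, the serum amyloid A of inflamed stroma and the most abundant acute-phase transcript here, had 4384 CPM (4371 to 4396) and 8345 CPM (8326 to 8364). Its log2 ratio of 0.93 fell short of the call, and was 1.05 (called) without the deepest cells. Lrg1, a secreted glycoprotein, rose from 12.9 to 73.0 CPM and Saa1 from 15.2 to 52.2 CPM, with 33.9% and 48.9% of the day 5 reads in a single cell. Without that cell neither was called. Cfb, complement factor B, had 950 and 707 CPM. The acute-phase list therefore had 3 called higher and 1 called lower of 6 compared (Hp, Lcn2 and Saa1 against C3), with a median log2 ratio of 1.22, beside 0.00 over all genes compared. The WT fibroblast-like cells gave 93.8 and 15.6 CPM for Hp, 67.4 and 18.2 CPM for Lcn2, and 1842 and 1362 CPM for C3. They were thus opposite in direction for Hp and Lcn2, a difference that was not tested. Of these WT cells, 100 of 315 at day 3 and 49 of 256 at day 5 lay in the Saa3-led cluster described below. The part of this mix in the WT levels was not tested.

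The rise of Hp and Lcn2 lay in 1 of the 3 fibroblast-like clusters. In the cluster led by Saa3, Reg1 and Cxcl5, with 412 and 359 cells, Hp went from 43.6 CPM (42.2 to 45.0) to 959 CPM (952 to 966). In the cluster led by Scara5 and Abca8a, with 239 and 141 cells, it was at 39.6 CPM (37.0 to 42.4) and 53.3 CPM (49.2 to 57.6). Lcn2 had 105 and 433 CPM in the first of these, and 19.2 and 9.19 CPM in the second. C3, by contrast, was lower at day 5 in both, at 1381 and 320 CPM, and at 1847 and 657 CPM. The Saa3-led cluster made up 60.5% (56.7 to 64.2) of fibroblast-like cells at day 3 and 67.0% (62.8 to 70.9) at day 5. The Scara5-led cluster made up 35.1% (31.5 to 38.8) and 26.3% (22.6 to 30.3), and a small Coch-led cluster 4.41% and 6.72%. Saa3 and Cxcl5 helped to define the clusters and are no result of this division. The clusters were made from variable genes of these same cells, so all levels by cluster, those of Hp and Lcn2 included, are a description.

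**Figure D3:**
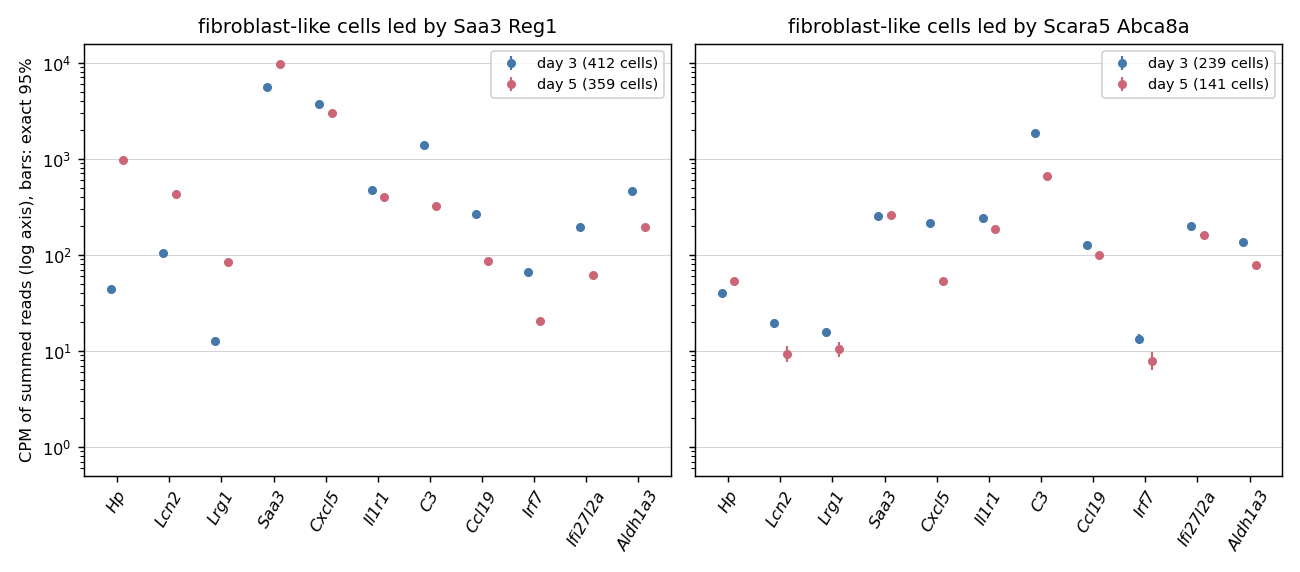
CPM of summed reads (vertical log axis) of 11 genes at day 3 and day 5 in the fibroblast-like cluster led by Saa3 and Reg1 (left) and in that led by Scara5 and Abca8a (right), with exact 95% intervals as bars. Hp lies at 43.6 and 959 CPM on the left and at 39.6 and 53.3 CPM on the right, while C3 is lower at day 5 in both.

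Cell by cell, Hp was carried by few fibroblast-like cells. Cells over 1000 CPM of Hp numbered 7 of 681 at day 3 and 52 of 536 at day 5, and the latter held 94.2% of the day 5 reads. The highest cell had 2433 CPM at day 3 and 57197 CPM at day 5. For Lcn2 the cells over 1000 CPM numbered 9 and 21. In cells thinned to 5000 reads, those with an Hp read were 5.15% (3.61 to 7.09) and 19.8% (16.5 to 23.4). Those with an Lcn2 read were 12.6% (10.2 to 15.4) and 13.6% (10.8 to 16.8), so that Lcn2 differed in level more than in the share of cells. NK cell-like cells, as a background, had 4.20% and 2.27% for Hp and 1.40% and 2.27% for Lcn2. Neutrophil-like cells had 765 and 778 CPM of Hp. The 10 neutrophil markers summed to 163 CPM at day 3 and 151 CPM at day 5 in fibroblast-like cells, and their part in the Hp level was not tested.

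C3 moved across most fibroblast-like cells. Cells over 1000 CPM numbered 345 of 681 at day 3 and 71 of 536 at day 5, and the median cell had 1020 and 103 CPM. At 5000 reads a cell, 80.4% (77.3 to 83.4) and 47.9% (43.6 to 52.3) had a C3 read. C3 was called lower in perichondrial-like cells too, and in none of the other 5 types compared. In basophil-like cells it had 214 and 85.4 CPM in the summed reads but a positive log2 ratio of 1.24 in the mean of cells.

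**Figure D4:**
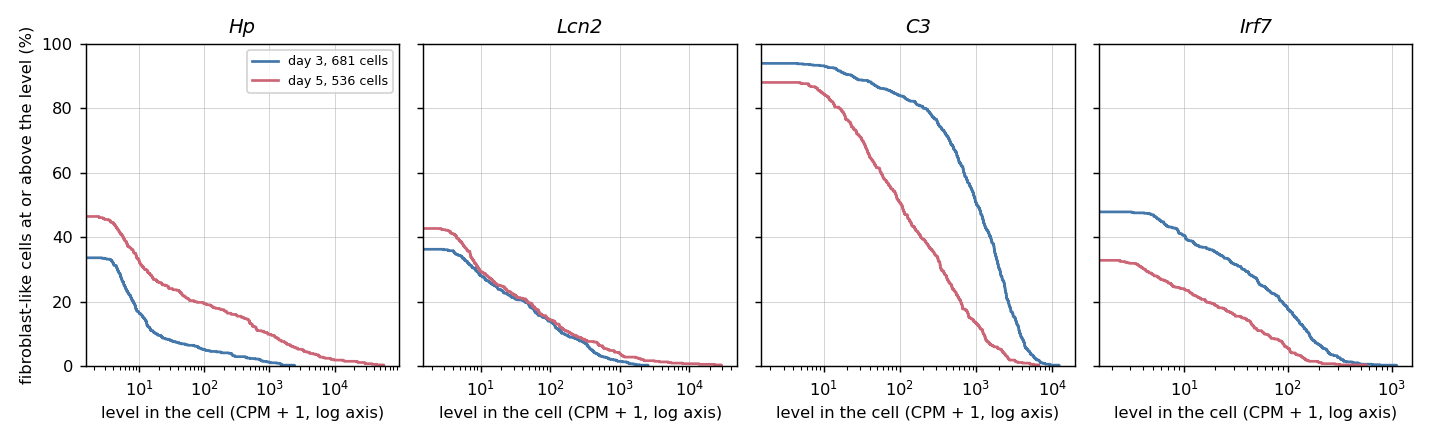
Share of fibroblast-like cells at or above a level (vertical axis, percent) against the level in the cell (CPM plus 1, horizontal log axis) for Hp, Lcn2, C3 and Irf7, with 681 cells at day 3 and 536 at day 5. The share of cells over 1000 CPM of Hp is 1.03% at day 3 and 9.70% at day 5, the Lcn2 curves nearly meet at 100 CPM (13.8% and 14.2%), and those of C3 and Irf7 lie lower at day 5.

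The other genes called lower in fibroblast-like cells included a chemokine, an enzyme and interferon-response genes. Ccl19, which draws CCR7-bearing dendritic and T cells, fell from 241 CPM (238 to 244) to 89.6 CPM (87.7 to 91.5). The gene model CT868690.1 had 209 and 73.5 CPM. The annotation places Ccl19 both on chromosome 4 and on an unplaced scaffold, and whether these models share reads was not tested. Aldh1a3, which makes retinoic acid, fell from 390 CPM (386 to 393) to 177 CPM (174 to 179). Irf7 fell from 57.1 CPM (55.7 to 58.5) to 19.2 CPM (18.3 to 20.1), and 17.1% (14.3 to 20.1) and 5.60% (3.81 to 7.89) of thinned cells had a read of it. Ifi27l2a, an interferon-inducible mitochondrial protein, fell from 192 to 73.7 CPM. In the Saa3-led cluster the log2 ratios were -1.56 for Ccl19, -1.23 for Aldh1a3, -1.49 for Irf7 and -1.60 for Ifi27l2a. In the Scara5-led cluster they were -0.33, -0.76, -0.50 and -0.30, in the same order. In the small Coch-led cluster Ccl19 and Irf7 were at -1.31 and -1.36, but Aldh1a3 and Ifi27l2a at 1.38 and 0.47. Of the 5 members of the interferon-stimulated list compared, Irf7 alone was called, and the median log2 ratio was -0.29. Irf7 and Ccl19 were called lower in WT fibroblast-like cells as well, at 103 and 18.5 CPM and at 206 and 38.2 CPM.

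Among the remaining higher genes, Serpinb2, an inhibitor of plasminogen activators, rose from 34.3 CPM (33.3 to 35.5) to 143 CPM (141 to 145). Ecrg4, a secreted precursor protein, rose from 32.3 CPM (31.3 to 33.4) to 84.9 CPM (83.0 to 86.8), with reads in 31.3% and 50.7% of cells. Both remained called without their top cell. Spp1 (osteopontin), Trf (transferrin) and Coch did not. Spp1 had 85.1% of its day 5 reads in a single cell, and its log2 ratio of 2.72 became 0.78 without it and -0.15 at a hashtag ratio of 10. Fabp4, a fatty acid carrier of endothelium and fat, went from 19.1 to 135 CPM, which was 2.12% of its level in the type that had most.

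In fibroblast-like cells, where 16 of 3435 genes were called (0.466%), the matrix genes of the lists and their chemokines other than Ccl19 were not called. Cxcl5 (chromosome 5, 90759360 to 90761624, plus strand), a ligand of CXCR2, had 2931 CPM (2921 to 2941) and 2538 CPM (2527 to 2548). Cxcl1 had 2968 and 2648 CPM, and the IL-1 receptor Il1r1 had 417 and 364 CPM. None of the 4 genes compared from the list of neutrophil chemokines and receptors was called. The monocyte chemokine Ccl2 had 4565 and 3250 CPM, the eotaxin Ccl11 had 2540 and 1519 CPM, Il33 had 488 and 319 CPM, and Csf1 had 930 and 589 CPM. None of 12 collagen genes, of 19 matrix remodelling genes, of 12 cell division genes and of 10 TNF and NF-κB feedback genes was called. At the share of calls over all genes, lists of this size would seldom hold one. The largest ratio among collagens was that of Col12a1, with 235 and 435 CPM. All 8 glycolysis and hypoxia genes compared had a ratio above 0 and none was called, with a median of 0.34. In all, 4 of the 21 lists with a gene compared held a called gene.

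Since types differed in share and in depth, the reads of a gene were also followed to the cells that held them. Of the reads of Il1a, 94.2% on day 3 and 96.1% on day 5 lay in neutrophil-like cells, as did 88.6% and 91.4% of those of Il1b. Over the whole pool Il1a went from 14.6 to 42.1 CPM and Il1b from 648 to 1497 CPM. These are larger ratios than within the cells, where both genes stayed within 2-fold. In bulk terms, more cells of a type and more RNA per cell would look alike. Cxcl2 reads lay in neutrophil-like cells for 68.4% and 81.3%. Il1r2, the decoy receptor that binds IL-1 without signalling, lay in neutrophil-like cells for 48.9% and 71.6%, and in fibroblast-like cells for 46.0% and 20.1%. Csf1 reads lay in fibroblast-like cells for 72.6% and 57.2%, and in neutrophil-like cells for 15.8% and 29.1%. Cxcl5 reads lay in fibroblast-like cells for 95.6% and 94.6%, and the pool level went from 2072 to 1660 CPM. Hp had 48.9% and 90.5% of its reads in fibroblast-like cells and 41.0% and 8.55% in neutrophil-like cells.

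**Figure D5:**
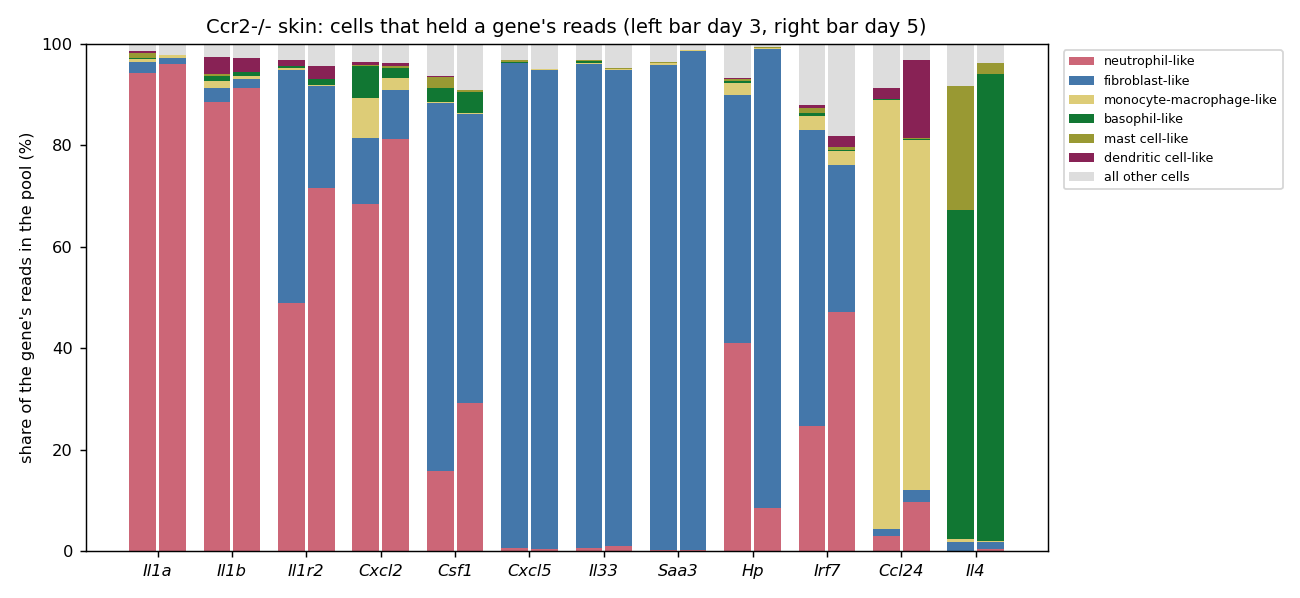
Share of each gene's reads held by 6 cell types and by all other cells (vertical axis, percent), for 12 genes of the Ccr2-/- pools, with day 3 as the left bar and day 5 as the right bar of each pair. Neutrophil-like cells hold over 88% of Il1a and Il1b on both days, and fibroblast-like cells hold 48.9% of Hp on day 3 and 90.5% on day 5.

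Mo-Mac-like cells, of which there were 132 and 88, had 26 of 3897 genes called higher at day 5 (0.667%) and 13 lower (0.334%). The lower genes included markers of alternative activation, the state that IL-4 induces in macrophages. Chil3, a chitinase-like lectin, fell from 784 CPM (768 to 801) to 224 CPM (213 to 235), a log2 ratio of -1.79. Retnla, another secreted product of this state, fell from 1109 CPM (1089 to 1129) to 495 CPM (479 to 512), a log2 ratio of -1.15. Slc7a2, the arginine transporter, fell from 456 CPM (443 to 469) to 168 CPM (159 to 178). Timp1, an inhibitor of matrix proteases, fell from 600 to 258 CPM, but lost its call without its top cell. Other genes of the list were within 2-fold. Arg1 had 2201 and 1495 CPM, the mannose receptor Mrc1 had 4936 and 4631 CPM, Cd163 had 1329 and 1866 CPM, and Il10 had 168 and 85.1 CPM. The list thus had 2 called lower of 7 compared, with a median log2 ratio of -0.56 in the summed reads, beside -0.04 over all genes. In the mean of the cells' CPM its median was -0.28.

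The type was also divided by cluster. The cluster led by Arg1 and Chil3 held 65 cells at day 3 and 47 at day 5. There, Chil3 had 1830 and 475 CPM, Retnla had 967 and 96.8 CPM, Slc7a2 had 945 and 305 CPM, and Timp1 had 933 and 364 CPM. In the cluster led by Cd209b and the C1q genes, with 62 and 37 cells, Retnla had 1235 and 846 CPM, Slc7a2 had 105 and 54.1 CPM, Timp1 had 361 and 171 CPM, and Chil3 only 1.302 and 2.37 CPM. Slc7a2, Timp1 and Retnla were thus lower at day 5 in both. Arg1, Chil3 and Retnla are among the leading genes of the first cluster, and all levels by cluster are a description. The 2 clusters made up 49.2% (40.4 to 58.1) and 47.0% (38.2 to 55.8) of the type at day 3, and 53.4% (42.5 to 64.1) and 42.0% (31.6 to 53.0) at day 5, and their intervals overlapped between the days. The remaining cluster, led by Ifitm6 and Ly6c2, had 5 and 4 cells.

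Among the higher genes of Mo-Mac-like cells, Smpdl3a, a secreted phosphodiesterase induced by cholesterol, rose from 47.7 CPM (43.6 to 52.0) to 116 CPM (108 to 124). Abca9, a lipid transporter, rose from 29.1 CPM (26.0 to 32.5) to 79.6 CPM (73.2 to 86.5), and Ypel3 from 15.0 to 57.2 CPM. All 3 were called under each of the 11 alternative settings, some of which cannot remove a call. Apoe, a lipid carrier, had 1222 and 2206 CPM, and C1qa had 1191 and 1459 CPM. C1qa, like Mrc1, is among the markers that named the type. The chemokines Ccl8 and Ccl2 had 8999 and 11730 CPM, and 7669 and 4583 CPM, and none of 10 CC chemokines was called. The largest ratios in the type rested on 1 cell. A single cell held 99.6% of the day 5 reads of Mmp12 and 96.6% of those of Cxcl10 likewise lay in 1 cell. Mfge8, a bridge to dying cells and the only efferocytosis gene called of 10 compared, had 73.9% of its reads in 1 cell. Without the top cell none of these 3 was called. S100a8 and S100a9 were called higher too, at 10.8 and 74.0 CPM and at 11.5 and 116 CPM. The sum of the neutrophil markers in Mo-Mac-like cells was 175 CPM at day 3 and 417 CPM at day 5, with 7 of 10 higher, and its part in these calls was not tested.

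Blood endothelial-like cells, 75 and 81 of them, were led by Rgs5, a gene also known from pericytes, beside the endothelial Esam, Ptprb and Vwf. They had 82 of 4068 genes called higher at day 5 (2.02%) and 51 lower (1.25%). Adhesion genes of the vessel wall were among the higher ones. Selp, P-selectin, on which leukocytes roll, rose from 349 CPM (331 to 369) to 855 CPM (830 to 881), with reads in 32.0% and 33.3% of cells. Ackr1, the chemokine-binding receptor of venules, rose from 107 CPM (96.5 to 118) to 380 CPM (363 to 397), with reads in 14.7% and 29.6% of cells. Vcam1, which binds integrins of monocytes and eosinophils, rose from 39.3 CPM (33.2 to 46.2) to 100 CPM (91.9 to 109), but was not called without its top cell. These were 3 of 7 adhesion genes compared, with a median log2 ratio of 1.03 in the summed reads, beside 0.00 over all genes. In the mean of the cells' CPM the median of the list was 0.46. Icam1 had 167 and 347 CPM, Sele had 176 and 265 CPM, and Pecam1 had 1642 and 1430 CPM, none of them called. Pecam1 is among the markers that named the type. Edn1, the vasoconstrictor endothelin-1, rose from 32.0 CPM (26.5 to 38.3) to 137 CPM (127 to 147). Saa3 and Cxcl5, fibroblast transcripts, were called lower, with 90.4% and 68.0% of their day 3 reads in 1 cell. The 8 fibroblast markers summed to 2318 and 4149 CPM in these cells, and the 10 neutrophil markers to 1254 and 1415 CPM.

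Perichondrial-like cells, the cartilage-lining cells of the ear with Chad and Cilp2, had 12 of 3742 genes called higher (0.321%) and 18 lower (0.481%). C3 fell from 485 CPM (472 to 499) to 149 CPM (142 to 156), a log2 ratio of -1.67. Col2a1, the collagen of cartilage, fell from 99.0 CPM (93.0 to 105) to 30.0 CPM (27.0 to 33.3), and Mmp3, or stromelysin, from 303 CPM (293 to 313.8) to 106 CPM (100.7 to 112). Col2a1 is among the markers that named the type, so cells of both days were selected partly by it. Fgf9 and Il13ra2 were called higher, at 16.4 and 53.8 CPM and at 41.6 and 121 CPM, and Fgf9 was not called without its top cell. Il11 and Spp1 were called higher with 93.8% and 84.2% of their day 5 reads in 1 cell. Genes of macrophages such as Mrc1, at 161 and 10.3 CPM, were among the lower ones, as was the sum of the 11 macrophage markers, 451 and 177 CPM. Of the called genes, 13 had over 50% of their reads in 1 cell.

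Basophil-like cells, 66 and 62 in number, had 207 of 3433 genes called higher (6.03%) and 265 lower (7.72%). These shares came with only 1564336 and 1311803 reads over the type, beside 109941318 and 91746912 in fibroblast-like cells, and 48 of the called genes had over 50% of their reads in 1 cell. Il4 (chromosome 11, 53602982 to 53618669, minus strand), the cytokine that induces alternative activation, rose from 885 CPM (839 to 933) to 3110 CPM (3015 to 3206), with reads in 56.1% and 66.1% of cells. Its log2 ratio was 1.81, and 1.96 without the top cell, which held 39.9% of the reads at day 3. Il13 rose from 264 CPM (239 to 291) to 551 CPM (512 to 593), and was not called without its top cell. They were 2 of 4 type 2 genes compared. Of the Il4 reads in the pool, basophil-like cells held 64.8% at day 3 and 92.2% at day 5, and mast cell-like cells 24.5% and 2.1%. Il6 had 5760 and 9177 CPM, and Ccl3 had 19429 and 33541 CPM, within 2-fold. The lower genes included Postn, Cxcl12, Mmp19 and Aldh1a3, each with over 94% of its day 3 reads in a single cell. The fibroblast markers summed to 7128 CPM at day 3 and 1115 CPM at day 5 in these cells.

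T cell-like cells, 89 and 76, had 226 of 4345 genes called higher (5.20%) and 212 lower (4.88%), from 1786066 and 1648559 reads. Some of the large ratios were those of genes read mainly in fibroblast-like cells. Cxcl5 had 47.6 and 622 CPM, and its log2 ratio of 3.58 became -0.06 without the top cell. The Mo-Mac markers summed to 46.5 and 454 CPM in T cell-like cells, with all 11 higher at day 5, and their part in the calls was not tested. Stx11, which serves granule release, fell from 78.4 to 5.46 CPM and was called under each of the 11 alternatives, as was Mindy3, a deubiquitinase, at 111 and 10.3 CPM.

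NK cell-like cells, 147 and 134, had 37 of 3968 genes called higher (0.932%) and 33 lower (0.832%). Flt3l, the growth factor of dendritic cells, rose from 20.5 CPM (16.5 to 25.2) to 68.0 CPM (60.4 to 76.3). Mindy3 rose from 12.0 to 75.3 CPM in these cells and fell in T cell-like cells. Phf14, a chromatin protein, fell from 124 CPM (114 to 134) to 35.8 CPM (30.3 to 41.9), and Cobll1 from 66.5 to 16.2 CPM. These 4 genes were called under each of the 11 alternatives. Ifng, the cytokine of these cells, had 195 and 158 CPM. The neutrophil markers summed to 82.1 and 392 CPM in NK cell-like cells.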

How the data were processed

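Single-cell libraries were made by TAS-Seq from hashtagged ear skin cells. The authors deposited counts of reads per gene and barcode and per hashtag and barcode, as whole numbers without normalization. The submitters' processing notes name Cutadapt, Bowtie2 and GRCm38.p6. The values are reads, not molecules, and 22.1% of the nonzero values are 1.

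Of 8953 barcodes, 760 had too few hashtag reads and 594 were over the mitochondrial limit. A further 570 had enough hashtag reads but no hashtag at least 3 times the next, and were removed as possible doublets. No doublet caller based on expression was run, so doublets within a pool remained. The 9 columns of other hashtags were not used. Of 35208 gene rows, 313 had no reads. The cells of all 4 pools were clustered together with scanpy 1.11.5 (CPM on a log scale, 2000 variable genes, scaled to at most 10, 30 principal components, 20 neighbours) and leidenalg 0.10.2 at resolution 1. A cluster was named "-like" where its markers' mean z-score over clusters was above 1, with 3 or more markers above 0.5 and read in 25% of its cells, and where no other type had more markers among its 10 leading genes. Types with at least 50 cells on each day were compared gene by gene. Genes with at least 50 CPM and reads in 10% of cells on either day were compared, with a pseudocount of 5 CPM in each ratio. Exact intervals (Clopper-Pearson for shares, Poisson for CPM) came from scipy 1.17.1. With 1 pool a side no p-value was computed.

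The genes named were, among called genes at 20% or more of the highest level in any type, the 10 highest and 10 lowest ratios in neutrophil-like and fibroblast-like cells and the 5 highest and 5 lowest elsewhere, beside members of 23 gene lists and Ccr2, Il1a, Il1b, Il1r1, Cxcl5 and Il4. Fabp4, Ifi27l2a, Lrg1, CT868690.1, Gm13822 and Smpdl3a, and list members named in a type that did not hold most of their reads, fall outside this rule and were named after their values were seen. The groups compared and the lists were chosen with earlier results of these data known. The authors aligned reads to Ensembl mouse RNA of GRCm38.p6, in another release than GENCODE M21, from which gene positions were taken. The rule for calling genes was tested on simulated reads for fibroblast-like and neutrophil-like cells. All simulated cells of a day shared the same profile, so genes carried by single cells were not simulated. Hashtag assignment, clustering and naming were not tested in this way. A called gene of neutrophil-like cells is not reported here.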

Additional observations from a re-analysis of the deposited data

Results flagged for a closer look

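Several results differed in direction between the genotypes, and none of these differences was tested, since each genotype had 1 pool a day. The share of neutrophil-like cells had a day 5 to day 3 ratio of 1.83 in Ccr2-/- skin and 0.2003 in WT skin, the latter from 52 and 7 cells. The share of Mo-Mac-like cells had ratios of 0.622 and 1.41, and that of fibroblast-like cells 0.735 and 1.21. In fibroblast-like cells the log2 ratio of Hp was 4.14 in Ccr2-/- skin and -2.26 in WT skin, and that of Lcn2 was 2.04 and -1.64. The mix of fibroblast-like clusters also differed between the WT days, and its part was not tested.

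Hashtag columns that no pool of the study used held 1715 reads over the Ccr2-/- cells, or 0.00754% of 22732022 hashtag reads, and 1466 of these lay in a single column. Of the 9 columns, 3 had more than the 3 reads that a count of 0 allows.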

How the results depend on the processing

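No paired analysis was possible because each day had 1 pool. Of the share ratios recomputed under alternative settings, 78 stayed within the interval of the reported ratio, and the neutrophil-like ratio became 1.45 with leukocyte types alone as denominator. Thinning to 10000 in place of 5000 reads moved 6 of 10 shares of cells with a read, among them that of Hp in fibroblast-like cells of day 3, to 9.45%. Of the counts of called genes, 69 stayed within 1.5 times the reported count and 19 did not. The reported counts were 11 for neutrophil-like, 16 for fibroblast-like, 39 for Mo-Mac-like, 133 for endothelial-like, 30 for perichondrial-like, 472 for basophil-like, 438 for T cell-like and 70 for NK cell-like cells. With genes from 10 CPM and no limit on cells, they were, in that order, 256, 40, 221, 812, 160, 2193, 2011 and 547. With the mean of the cells' CPM alone, they were 30 for neutrophil-like, 240 for Mo-Mac-like, 708 for endothelial-like, 86 for perichondrial-like, 752 for basophil-like, 779 for T cell-like and 287 for NK cell-like cells. NK cell-like cells had 116 without the deepest cells, and T cell-like cells 723 at Leiden resolution 2. Without the single cell that held most reads of each gene, Mo-Mac-like cells had 19 and perichondrial-like cells 10. The first alternative tests more genes and the second drops a criterion by construction. For the others the cause was not tested.

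Counted once per gene and setting, the ratios of named genes kept their call, or the lack of one, in 981 cases. In 141 cases they kept direction and lost the call, in 4 they gained it, and in 7 a called gene reversed. For genes without a call a change of direction was not counted. A pseudocount of 1 CPM and the filter from 10 CPM with no limit on cells could not remove a call. In some types other settings returned the reported calls unchanged, as Leiden resolution 0.5 did in T cell-like, NK cell-like and basophil-like cells. A call kept under such settings is no separate support. Without the deepest cells, Cxcl5 in T cell-like cells reversed to -0.34 and Cxcl12 in basophil-like cells to 0.094. Without the top cell, they were -0.064 and 0.12, and Mmp12 in Mo-Mac-like cells was -0.78. Spp1 in fibroblast-like cells was -0.15 at a hashtag ratio of 10, and Mmp19 in perichondrial-like cells was 0.82 when the Ccr2-/- pools were clustered alone. Of the called genes, 48 of 472 in basophil-like, 25 of 438 in T cell-like, 13 of 30 in perichondrial-like and 7 of 39 in Mo-Mac-like cells had over 50% of their reads in 1 cell.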
